A study of Mus musculus with 23 samples.

Results

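The genes described here encode the enzymes that cut the extracellular matrix, the proteins that inhibit them and the enzymes that crosslink it. They were chosen by symbol: the matrix metalloproteinases (Mmp), the tissue inhibitors of metalloproteinases (Timp), the ADAMTS proteases (Adamts), the ADAMTS-like proteins (Adamtsl) and lysyl oxidase with its relatives (Lox, Loxl). The rule found 51 genes in the 3 deposited tables, of which 18 were Mmp, 4 Timp, 19 Adamts, 5 Adamtsl and 5 Lox family genes. Muscle held 50 of them among 20628 genes, fat 51 among 26702 and hypothalamus 46 among 25623. RNA was sequenced from C57BL/6 mice, an inbred strain, treated for 8 weeks with oxaliplatin, a platinum drug used against colorectal cancer, or with vehicle. The oxaliplatin label is 10 mg/kg, and the vehicle, the dosing schedule and the age of the mice are not given in the sources used here. Tibialis anterior, a shin muscle, gave 5 oxaliplatin and 4 vehicle libraries. Subcutaneous white fat gave 4 oxaliplatin and 3 vehicle libraries, and hypothalamus gave 4 oxaliplatin and 3 vehicle libraries, 23 in all. The study's title concerns cachexia, the loss of muscle and fat mass, so the comparison asks how the transcripts of matrix turnover differed with the drug in each tissue.

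Metalloproteinases of both protease families carry a zinc ion at the active site and are made as inactive precursors. TIMPs bind that site and block it, with TIMP3 the member that is held in the matrix. The ADAMTS aggrecanases cut large proteoglycans such as aggrecan and versican, other ADAMTSs process procollagen or act on fibrillin microfibrils, and ADAMTS-like proteins lack the protease domain and bind microfibrils. Lysyl oxidases oxidise lysines of collagen and elastin so that the fibres become crosslinked, and in fat and muscle most of these genes are known as products of fibroblasts and vessel cells.

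Depth in M counts per library ran over 22.4 to 32.2 (oxaliplatin) and 27.3 to 31.2 (vehicle) in muscle, and over 16.5 to 18 (oxaliplatin) and 16.9 to 22.7 (vehicle) in fat. Hypothalamus had 23.6 to 26.4 (oxaliplatin) and 27.3 to 28.5 (vehicle), so the depths of its arms did not overlap. Several libraries stood apart. In fat, oxaliplatin mouse 5 had a summed fibroblast marker level of 21180 CPM (read counts scaled to a common library size, TMM-normalised), against 2990 to 4102 in the other oxaliplatin libraries and 14430 to 19455 in vehicle libraries. Fat vehicle mouse 4 had 126926 CPM of muscle fibre markers, against 41.5 to 3303 in the other fat libraries. In muscle, the labels of oxaliplatin mouse 5 conflict, with oxaliplatin in the title and vehicle as the treatment, and the title was followed; vehicle mice 3 and 4 had 124 and 116 CPM of neutrophil markers, against 0.814 to 3.57 in the other muscle libraries. The 3 tissues showed their own defining markers, such as 135905 to 180683 CPM of muscle fibre genes in every muscle library.

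No member passed the adjusted threshold of 0.05 in any tissue with edgeR's quasi-likelihood F test. In muscle 36 members were abundant enough to test and 0 were called, where 0.163% of all 14737 tested genes were. In fat 46 were tested and 0 called, against 0.0% of 19870 genes, and in hypothalamus 43 were tested and 0 called, against 0.148% of 18941 genes. At an unadjusted p below 0.05 there were 10 members in muscle, beside 9.59% of all genes. Of these, 3 were higher with oxaliplatin (4.8% of all genes) and 7 lower (4.79%). Fat had 12, beside 26.1%, with 5 higher (13.4%) and 7 lower (12.7%), and hypothalamus had 7, beside 10.2%, with 4 higher (6.2%) and 3 lower (4.0%). limma-voom also called 0 members in each tissue. DESeq2 called 1 in muscle, Mmp9, which was lower (1.72% of all genes called, 1.09% higher and 0.631% lower). It called 3 in hypothalamus, all higher (1.38% of all genes, 1.15% higher and 0.238% lower), and 8 in fat, named with the fat results.

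The arms did not overlap in CPM for 0 members in muscle (3.89% of all tested genes, 2.18% higher and 1.7% lower with oxaliplatin). They were apart for 8 members in fat (21.5% of all genes), 4 higher (10.3%) and 4 lower (11.2%), and for 5 in hypothalamus (9.93%), 4 higher (5.58%) and 1 lower (4.35%). In muscle and fat the members lay mostly below 0. Muscle had 26 of 36 below, with a median log2 fold change of -0.37 beside -0.01 over all tested genes. Fat had 30 of 46 below, with a median of -0.24 beside 0.03 over all tested genes. Hypothalamus had 26 of 43 below, with a median of -0.06 beside 0.01. In bulk RNA, fewer cells of a type and less RNA per cell cannot be told apart.

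**Figure D1:**
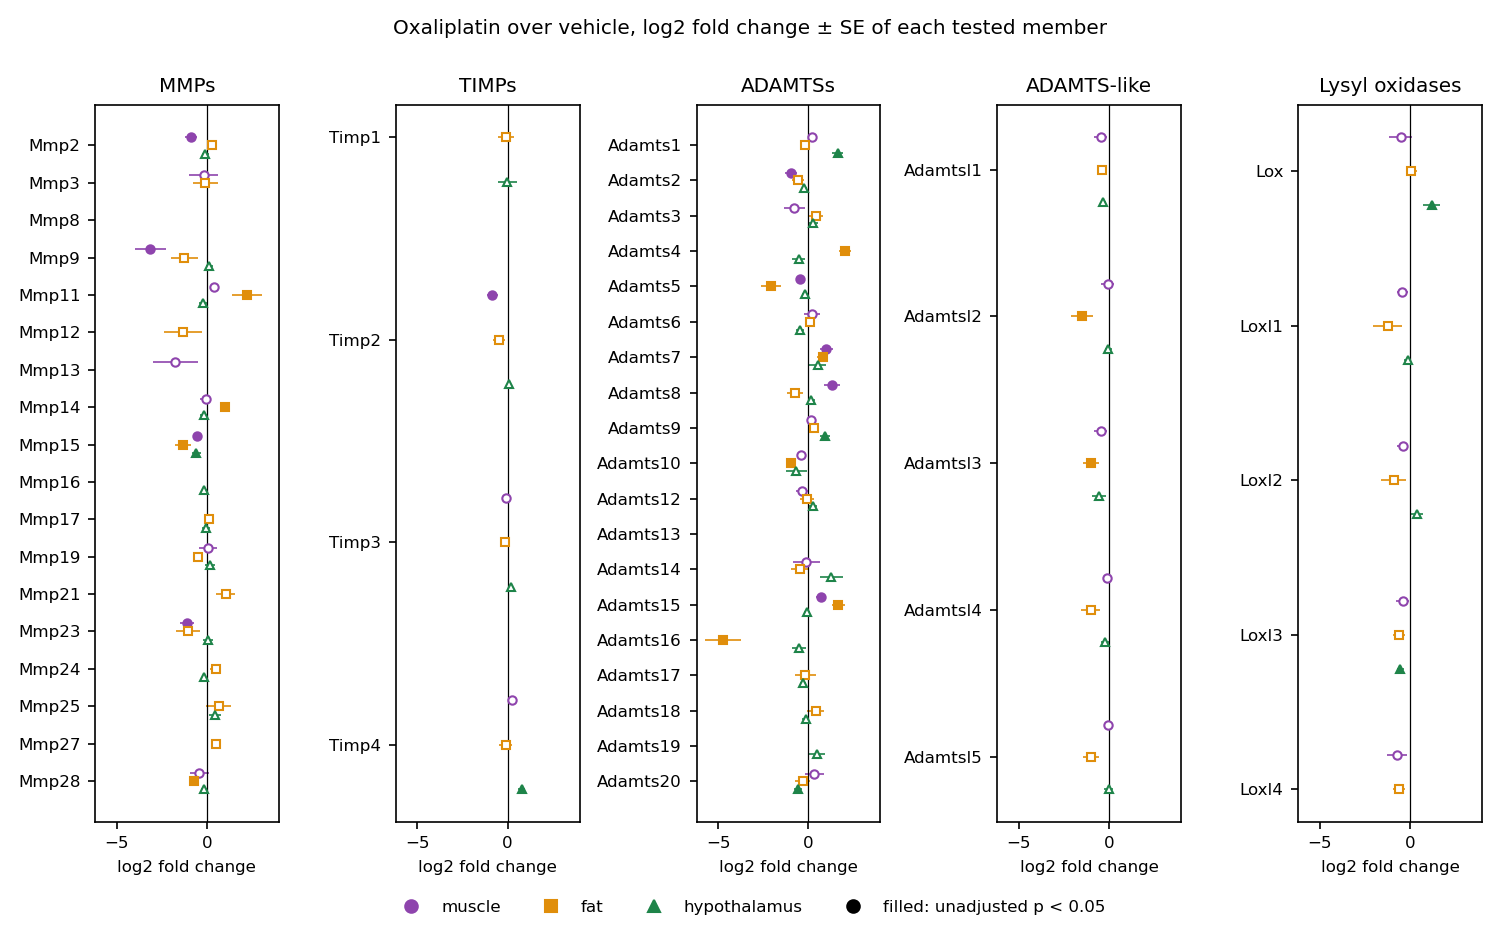
Log2 fold change of oxaliplatin over vehicle (x axis) with its SE for each tested member (y axis), by family and tissue, with filled symbols where the unadjusted p was below 0.05. The 5 ADAMTS-like genes lie below 0 in every tissue, while ADAMTS genes lie on both sides, from -4.74 for Adamts16 to 2.02 for Adamts4 in fat.

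Levels between genes were compared per length, as reads per kb of annotated exon per M reads. In vehicle mice TIMPs were the most abundant members in each tissue. Timp3 led in muscle at 35.4 ± 11 (SD, n = 4), followed by Mmp2, gelatinase A, at 12.1 ± 5.77 and Timp4 at 9.38 ± 0.690, and the spreads of Mmp2 and Timp4 overlap. Timp2 led in fat at 122 ± 22.4 (SD, n = 3), with Timp3 at 66.8 ± 1.60, Loxl1 at 63.5 ± 17.1 and Mmp2 at 59.2 ± 11.9, which did not differ beyond their spread from each other. In hypothalamus Timp2 stood at 161 ± 7.29 (SD, n = 3), above Timp3 at 27.6 ± 1.09, and the most abundant proteases were the membrane-bound Mmp15 at 11.7 ± 1.01 and Mmp17 at 10.8 ± 1.86, which overlap. Adamts5, an aggrecanase, was at 44.9 ± 9.16 in vehicle fat, where it led its family, and Adamts1 led it in vehicle muscle at 5.14 ± 0.819. Adamts2, the procollagen N-proteinase, and Adamts4, another aggrecanase, shared the lead in vehicle hypothalamus at 7.11 ± 0.429 and 7.11 ± 0.593.

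**Figure D2:**
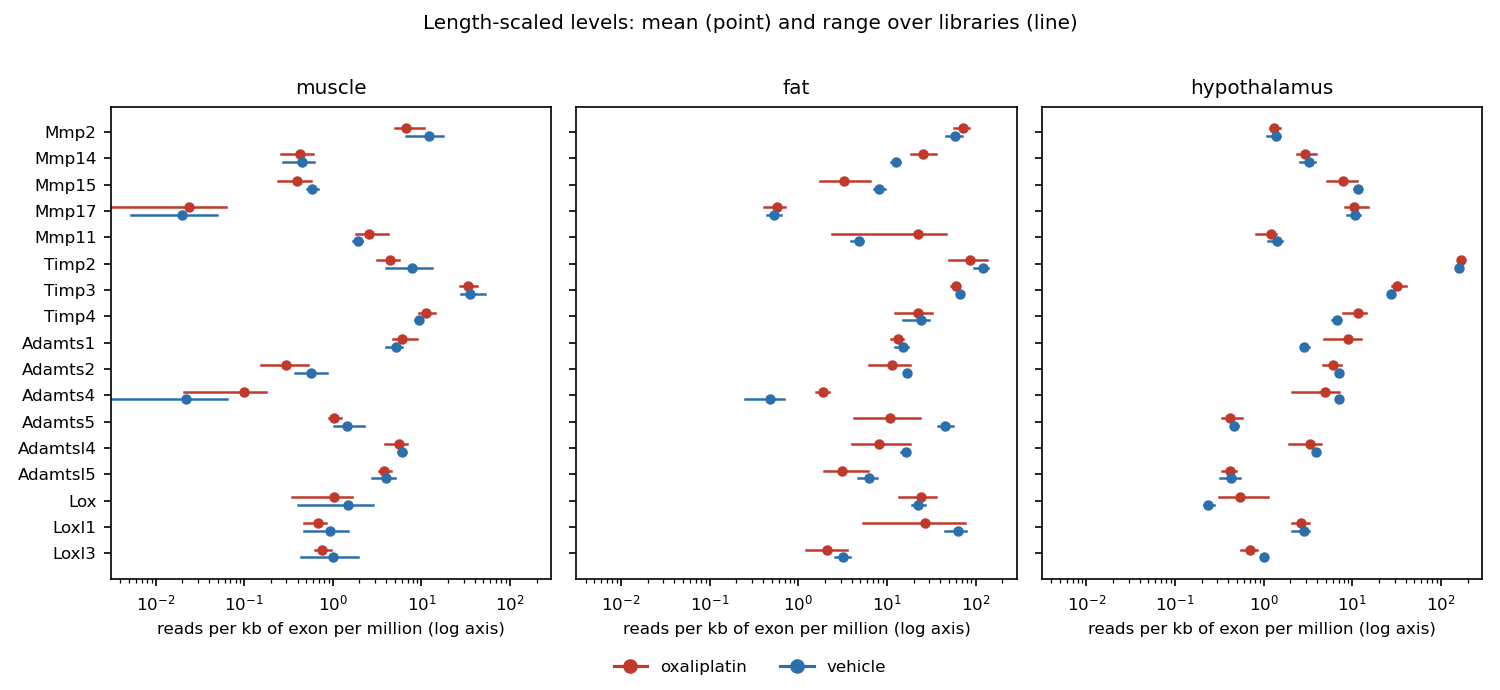
Reads per kb of exon per M (x axis, log) of 17 members in each tissue, as the mean (point) and range over libraries (line), oxaliplatin above vehicle. A line that meets the left edge reaches 0. Adamts5 in fat has its oxaliplatin mean of 10.8 well to the left of its vehicle mean of 44.9, and Adamts1 in hypothalamus stands to the right of vehicle.

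The catalytic zinc site is the feature that sets the 2 protease families apart from the other members, and it is shown for the 6 proteases on which the results below turn. A search of the coding sequences of GENCODE M21 (GRCm38) for the codons of His-Glu-x-Gly-His-x-x-Gly/Asn-x-x-His found it in 18 of 18 Mmp genes and 18 of 19 Adamts genes. It was not found with these letters in Adamts8, nor in any of the 5 Adamtsl, 5 Lox family or 4 Timp genes. A site with another residue in the Gly/Asn place was not searched for, so Adamts8 may still hold one. In all 18 Mmp genes the 11 codons lay within 1 exon, and in all 18 Adamts genes an intron split them. Capitals mark the 3 histidine codons that hold the zinc and the catalytic glutamate codon.
Mmp2 (chr8:92839279-92839311, + strand): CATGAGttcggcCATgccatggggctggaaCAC
Mmp14 (chr14:54437627-54437659, + strand): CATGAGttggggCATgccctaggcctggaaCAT
Adamts1 (chr16:85799191-85799545, - strand, intron included): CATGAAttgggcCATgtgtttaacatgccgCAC
Adamts4 (chr1:171253210-171253915, + strand, intron included): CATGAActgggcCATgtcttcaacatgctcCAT
Adamts15 (chr9:30911255-30911690, - strand, intron included): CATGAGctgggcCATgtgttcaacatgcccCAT
Adamts5 (chr16:85878015-85887826, - strand, intron included): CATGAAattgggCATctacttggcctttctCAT
Over the 33 bases Adamts15 shared 30 with Adamts4 and 28 with Adamts1, whereas Adamts5 shared 19 with Adamts4 and 20 with Adamts1, and Mmp14 shared 27 with Mmp2. Mmp14 shared 20 with Adamts1, 21 with Adamts4, 21 with Adamts15 and 22 with Adamts5. Adamts5 thus shared more bases with Mmp14 than with any other ADAMTS gene shown.

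Among the secreted gelatinases and collagenases, muscle gave the largest difference in Mmp9, gelatinase B, which neutrophils store in their granules. Mmp9 had 0.262, 0.317, 0.350, 0.537 and 0.446 CPM in oxaliplatin mice 1 to 5, against 0.861, 0.163, 8.38 and 4.10 CPM in vehicle mice 1 to 4. The high values were those of vehicle mice 3 and 4, and vehicle mouse 2 lay below every oxaliplatin library. The log2 fold change was -3.12 ± 0.86 (SE), with an edgeR adjusted p of 0.237. Mmp8, the neutrophil collagenase, was too low to test and had 0.0984 to 0.400 CPM in oxaliplatin libraries, against 0, 0.0407, 5.90 and 2.66 CPM in vehicle mice 1 to 4. The same 2 vehicle libraries were high in both genes and in the 10 neutrophil markers, which summed to 1.07 to 3.57 CPM with oxaliplatin and to 1.72, 0.814, 124 and 116 CPM in vehicle mice 1 to 4. With vehicle mice 3 and 4 left out, a setting chosen after seeing the data, the log2 fold change of Mmp9 was -0.41 (edgeR adjusted p = 0.817).

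Gelatinase A and its partner Timp2 showed the same libraries high. Mmp2 had 17.1, 36.0, 19.6, 20.5 and 19.0 CPM with oxaliplatin, against 22.4, 25.9, 55.5 and 59.7 CPM with vehicle, a log2 fold change of -0.87 ± 0.33 (edgeR adjusted p = 0.417). Oxaliplatin mouse 2 lay among the vehicle values. Mmp23, a transmembrane protease, had 0.295 to 0.714 CPM in oxaliplatin libraries and 0.492 to 1.61 CPM in vehicle libraries (log2 -1.08 ± 0.38, edgeR adjusted p = 0.346). Fibroblast markers followed the same libraries: their sum was 973 to 2124 CPM with oxaliplatin and 1169, 1428, 2929 and 4566 CPM in vehicle mice 1 to 4, and 12 of 12 lay below 0 in the fit. With vehicle mice 3 and 4 left out Mmp2 had a log2 fold change of -0.11 (edgeR adjusted p = 0.899), and the part of the marker cells in the result was not tested.

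**Figure D3:**
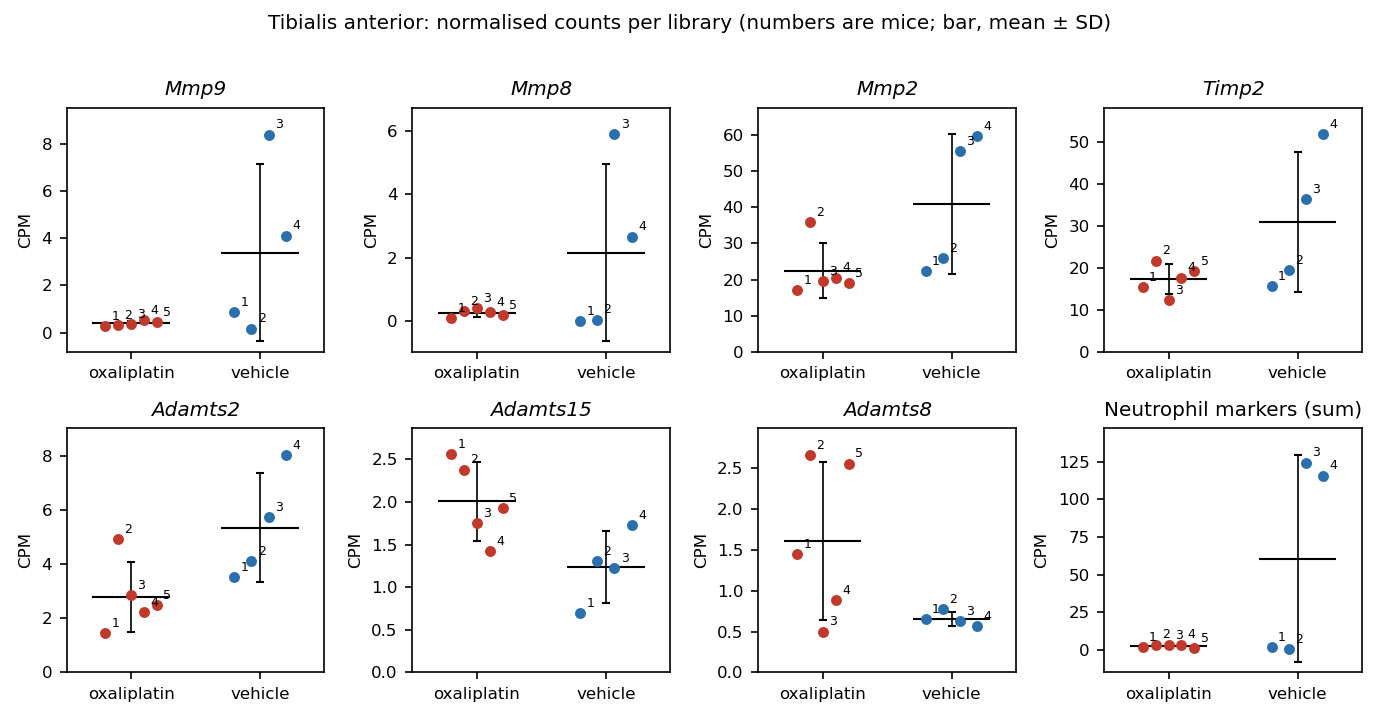
Normalised CPM (y axis) of 7 members and of the summed neutrophil markers in tibialis anterior, by arm (x axis), with the mouse number beside each library and the mean ± SD as bars. Vehicle mice 3 and 4 stand far above the other libraries for Mmp9, Mmp8, Mmp2, Timp2 and the neutrophil sum, which reaches 124 CPM, while Adamts15 and Adamts8 lie mostly higher with oxaliplatin.

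In fat Mmp14 and Mmp15 lay on opposite sides of vehicle, while Mmp17, Mmp24 and Mmp25, which are also membrane-bound, overlapped it. Mmp14, which activates the Mmp2 precursor at the cell surface, had 117, 213, 168 and 112 CPM in oxaliplatin mice 2 to 5, against 67.0, 84.3 and 75.2 CPM in vehicle mice 1, 2 and 4. Every oxaliplatin library lay above every vehicle library, with a log2 fold change of 1.01 ± 0.25 (edgeR adjusted p = 0.114). Mmp15, a membrane-bound relative of Mmp14, had 9.57, 11.9, 14.2 and 35.1 CPM with oxaliplatin, against 39.1, 42.3 and 52.0 CPM with vehicle. Its arms did not overlap either, in the opposite direction, and oxaliplatin mouse 5 lay closest to vehicle (log2 -1.33 ± 0.44, edgeR adjusted p = 0.139). Mmp28, epilysin, had 26.8, 17.6, 26.5 and 37.0 CPM with oxaliplatin and 46.5, 47.5 and 36.5 CPM with vehicle, where mouse 5 and vehicle mouse 4 overlapped by a small margin (log2 -0.69 ± 0.24, edgeR adjusted p = 0.145). Exons of Mmp28 overlap those of 1700020L24Rik on the opposite strand, which had a log2 fold change of -0.63 in fat (unadjusted edgeR p below 0.05), so reads of the genes cannot be told apart. The abundant Mmp2 was 243 ± 38.7 CPM with oxaliplatin (SD, n = 4) and 199 ± 40.1 CPM with vehicle (SD, n = 3), which did not differ beyond the spread.

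Mmp11, stromelysin-3, is named here after its values were seen, because 1 oxaliplatin library lay on the other side of vehicle from the rest. It had 43.9, 127, 74.1 and 6.70 CPM in oxaliplatin mice 2 to 5 of fat, against 15, 14.2 and 11.1 CPM in vehicle mice. Mouse 5 lay below every vehicle library and the other oxaliplatin libraries above all of them. The log2 fold change was 2.23 ± 0.83 (edgeR adjusted p = 0.157), and 2.60 (edgeR adjusted p = 0.00687) without mouse 5. An exon of Mmp11 overlaps one of Chchd10 on the opposite strand, so reads of the genes cannot be told apart where strand is not stated; Chchd10 itself had a log2 fold change of 0.82 in fat (unadjusted edgeR p above 0.05).

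In hypothalamus 1 of 12 tested Mmp genes had an unadjusted edgeR p below 0.05, and it was lower, beside 10.2% of all genes (4.0% lower). Mmp15 had 27.9, 32.6, 46.1 and 61.4 CPM in oxaliplatin mice 2 to 5, against 57.0, 67.5 and 64.8 CPM in vehicle mice 1, 2 and 4. Only mouse 5 reached the vehicle range (log2 -0.59 ± 0.25, edgeR adjusted p = 0.485). The log2 fold change of Mmp15 was below 0 in all 3 tissues, with -0.55 ± 0.24 in muscle (edgeR adjusted p = 0.486).

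The ADAMTS proteases gave the 4 smallest p-values among members in fat and the smallest in hypothalamus. Adamts4, an aggrecanase (chr1:171250421-171260638), had 10.6, 9.33, 9.38 and 7.70 CPM in oxaliplatin fat, against 3.34, 2.31 and 1.21 CPM in vehicle fat. The lowest oxaliplatin library was above the highest vehicle library, and mouse 5 was no exception. The log2 fold change was 2.02 ± 0.34, 4.06-fold, with an edgeR adjusted p of 0.0846.

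Adamts15, a versican-cutting protease (chr9:30899155-30922453), had 135, 94.5, 44.7 and 60.6 CPM in oxaliplatin fat, against 26.4, 29.1 and 23.3 CPM in vehicle fat. The arms did not overlap, and the spread among the oxaliplatin libraries was wider than the gap between their lowest value and the highest vehicle value. Its log2 fold change was 1.67 ± 0.38 (edgeR adjusted p = 0.114). Adamts7, which cuts cartilage oligomeric matrix protein, had 14.6, 20.9, 26.0 and 14.3 CPM with oxaliplatin and 14.0, 12.2 and 6.66 CPM with vehicle, so its arms were separate by a small gap, with an exon overlap with Tbc1d2b that went the other way at a log2 of -0.15 (Adamts7 log2 0.79 ± 0.32, edgeR adjusted p = 0.178).

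Adamts5, the most abundant ADAMTS of vehicle fat, went the other way (chr16:85856173-85901829). It had 45.7, 76.4, 90.9 and 254 CPM in oxaliplatin mice 2 to 5, against 409, 597 and 448 CPM in vehicle mice. Mouse 5 was the highest oxaliplatin library and was still below each vehicle library (log2 -2.05 ± 0.55, edgeR adjusted p = 0.118). Without mouse 5 the log2 fold change was -2.77 (edgeR adjusted p = 0.00142), beside 25.5% of all genes called (13.5% lower). Adamts10, which acts on fibrillin microfibrils, had 30.1, 44.5, 37.6 and 58.2 CPM with oxaliplatin and 72.8, 97.4 and 82.1 CPM with vehicle, again without overlap (log2 -0.98 ± 0.23, edgeR adjusted p = 0.114).

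Adamts16 was detected in 1 of the 4 oxaliplatin fat libraries, at 0.412 CPM in mouse 5, and lay at 2.47, 3.00 and 2.75 CPM in vehicle mice. That is 7 reads in all with oxaliplatin, each from mouse 5, and 139 with vehicle. The size of the fitted log2 fold change of -4.74 ± 0.99 (edgeR adjusted p = 0.109) therefore rests on the few reads of that library.

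**Figure D4:**
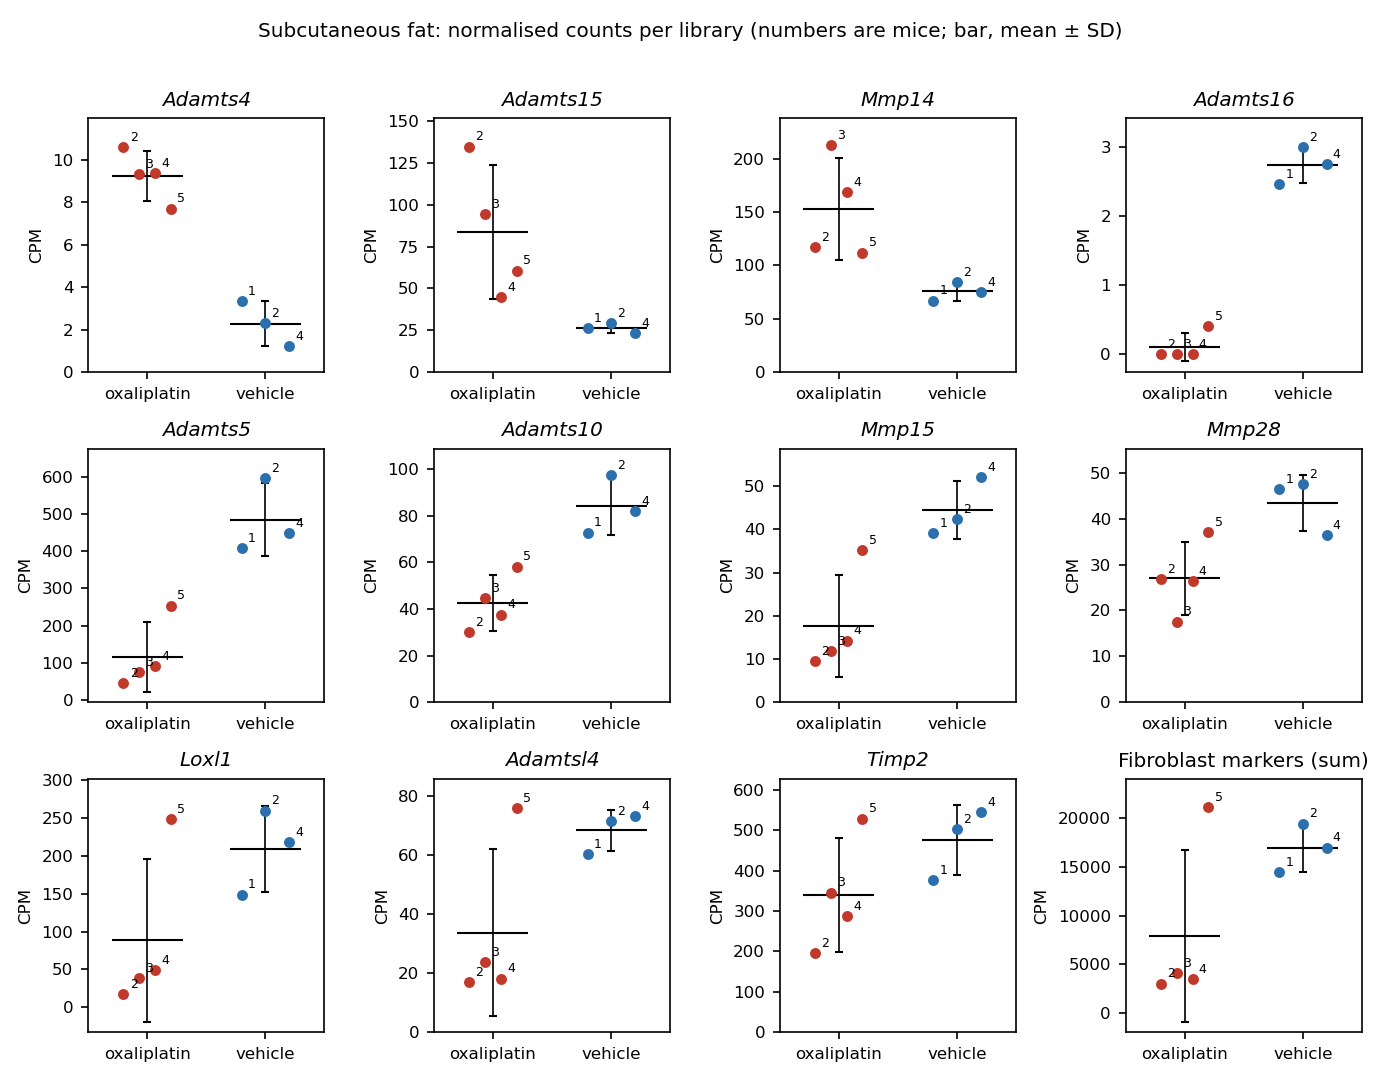
Normalised CPM (y axis) of 11 members and of the summed fibroblast markers in subcutaneous fat, by arm (x axis), with the mouse number beside each library and the mean ± SD as bars. Adamts4, Adamts15 and Mmp14 are higher in every oxaliplatin library, Adamts16, Adamts5, Adamts10 and Mmp15 lower in every one, and oxaliplatin mouse 5 sits with vehicle for Loxl1, Adamtsl4, Timp2 and the fibroblast sum.

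Oxaliplatin mouse 5 was the oxaliplatin library nearest to the vehicle mean for 26 of 46 fat members (56.5%), and for 48.5% of all tested genes. With it left out, edgeR called 21 of 45 tested members, beside 25.5% of all 19472 genes. The 4 called higher were Adamts4, Adamts15, Mmp11 and Mmp14, beside 12% of all genes. The 17 called lower, beside 13.5% of all genes, held 6 ADAMTS genes (Adamts2, Adamts5, Adamts10, Adamts12, Adamts14 and Adamts16), 3 ADAMTS-like genes (Adamtsl3, Adamtsl4 and Adamtsl5), 4 Mmp genes (Mmp15, Mmp19, Mmp23 and Mmp28), 3 lysyl oxidases (Loxl1, Loxl2 and Loxl3) and Timp2. DESeq2 on all 7 libraries called Adamts4, Adamts15, Mmp11 and Mmp14 higher and Adamts5, Adamts10, Adamts16 and Mmp15 lower, 8 in all, beside 12.2% of all genes (5.91% higher and 6.31% lower). A fit over all tissues at once called 10 of 51 in fat, 5 higher (5.26% of all genes) and 5 lower (6.96%), and 1 in hypothalamus, Adamts1, higher (0.221% of all genes, 0.209% higher and 0.0125% lower). It called 0 in muscle, beside 0.292% of all genes (0.188% higher and 0.104% lower). Among marker lists, summed fibroblast markers moved with the lower set in the mice, at 2990, 4102, 3426 and 21180 CPM in oxaliplatin mice 2 to 5 and 14430, 19455 and 16982 CPM in vehicle mice. The sum covers 12 of 12 listed genes, none of them at 0 in any fat library. In the fit of all 7 libraries 11 of them had a log2 fold change below 0 and 1 above, with 0 at an unadjusted edgeR p below 0.05. The 11 adipocyte markers summed to 16554, 17669, 16870 and 29016 CPM in oxaliplatin mice 2 to 5, against 29917, 24724 and 22735 CPM in vehicle mice, so mouse 5 lay in the vehicle range there too. Pericyte and smooth muscle markers summed to 1115 to 1230 CPM with oxaliplatin and 1392 to 1518 CPM with vehicle, without overlap. The part of these cells in the result was not tested.

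Hypothalamus had its largest difference in Adamts1 (chr16:85793827-85803114), a proteoglycan-cutting protease. Adamts1 had 66.1, 54.0, 42.8 and 25.5 CPM in oxaliplatin mice 2 to 5, against 14.0, 17.0 and 14.4 CPM in vehicle mice 1, 2 and 4. The arms were well apart, with mouse 5 the lowest of the oxaliplatin libraries. The fold was 3.11 (log2 1.64 ± 0.30, edgeR adjusted p = 0.163), and without mouse 5 the log2 fold change was 1.83 (edgeR adjusted p = 0.00135), beside 3.49% of all genes called (2.12% higher and 1.36% lower). DESeq2 on all 7 libraries called Adamts1 too, with an adjusted p of 4.58e-07, beside 1.38% of all genes.

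Adamts9, a versican-cutting protease, had 18.7, 15.3, 8.57 and 9.34 CPM with oxaliplatin in hypothalamus, against 6.40, 6.59 and 7.31 CPM with vehicle. The arms did not overlap (log2 0.94 ± 0.27, edgeR adjusted p = 0.345). Adamts20 had 4.63, 5.80, 4.50 and 7.94 CPM with oxaliplatin and 9.58, 6.87 and 9.45 CPM with vehicle, and Adamts6 had 4.95 to 6.91 CPM with oxaliplatin and 6.19 to 10.9 CPM with vehicle, both with overlap. Adamts4, which oligodendrocytes express in brain, had 9.95, 23.8, 27.1 and 34.2 CPM with oxaliplatin and 34.0, 37.1 and 31.5 CPM with vehicle. Its lowest library, mouse 2, also had the lowest oligodendrocyte marker sum, 2465 CPM, against 4633 to 5197 CPM in the other oxaliplatin libraries and 4730 to 5598 CPM with vehicle. Mice 3 and 4 lay below each vehicle library in Adamts4 too, with marker sums of 4922 and 4633 CPM. The part of these cells in the level of Adamts4 was not tested.

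Endothelial markers moved with the higher genes of the hypothalamus. The 10 markers summed to 592, 667, 574 and 365 CPM in oxaliplatin mice 2 to 5, against 177, 189 and 189 CPM in vehicle mice. All 10 lay above 0 and edgeR called 3 of them higher, and pericyte and smooth muscle markers summed to 298 to 384 CPM with oxaliplatin and 267 to 298 CPM with vehicle. Mouse 5 was lowest of the oxaliplatin libraries in the endothelial sum, as in Adamts1 and Timp4. In Adamts9 and Lox, also higher in every oxaliplatin library, mouse 5 was not the lowest. Whether vessel content accounts for any of these levels was not tested.

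**Figure D5:**
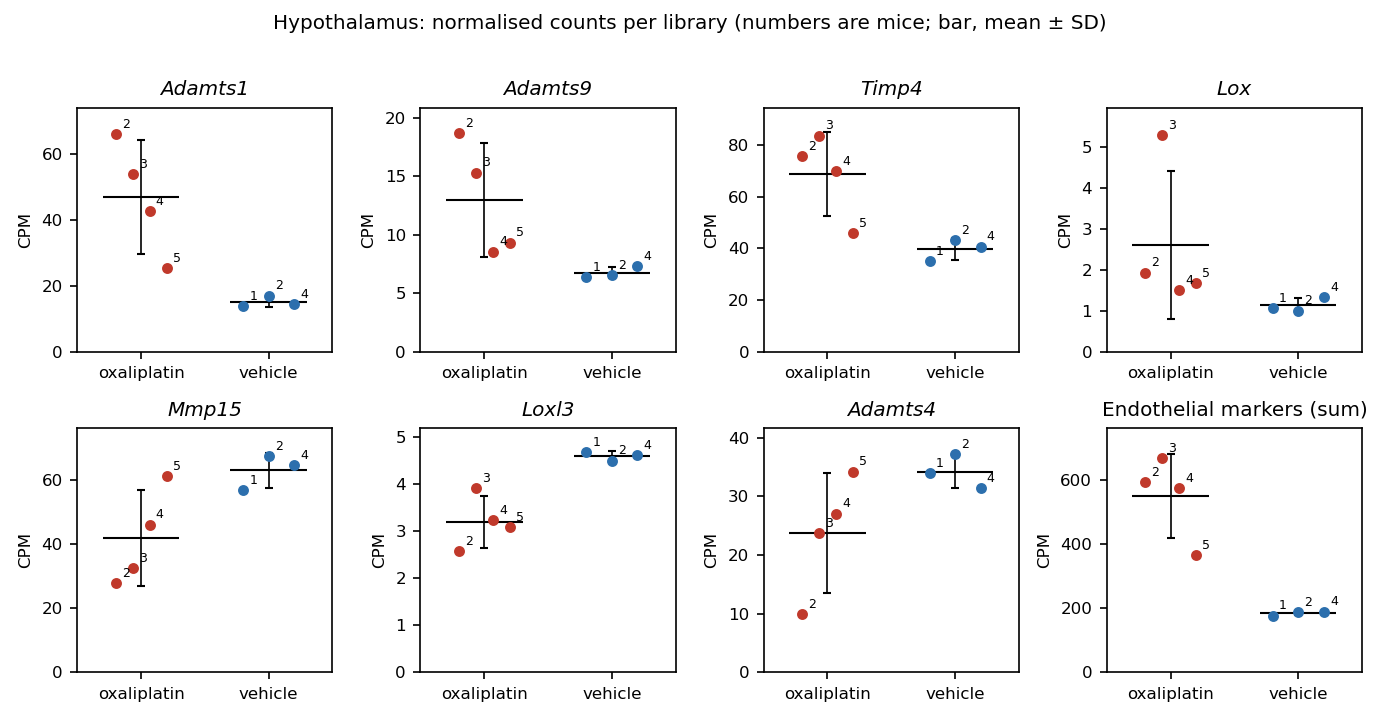
Normalised CPM (y axis) of 7 members and of the summed endothelial markers in hypothalamus, by arm (x axis), with the mouse number beside each library and the mean ± SD as bars. Adamts1, Adamts9, Timp4 and Lox are higher in every oxaliplatin library than in any vehicle library, Loxl3 is lower in every one, and the endothelial sum separates the arms with mouse 5 closest to vehicle at 365 CPM.

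In muscle 5 of 13 tested ADAMTS genes had an unadjusted edgeR p below 0.05, beside 9.59% of all genes. Of these, 3 were higher (4.8% of all genes) and 2 lower (4.79%). Adamts8 had 1.44, 2.66, 0.500, 0.884 and 2.55 CPM in oxaliplatin mice 1 to 5, against 0.656, 0.774, 0.629 and 0.565 CPM in vehicle mice 1 to 4. Mouse 3 lay below the vehicle range and the others above it (log2 1.30 ± 0.44, edgeR adjusted p = 0.330). With mouse 5, the library of conflicting labels, counted as vehicle, the log2 fold change of Adamts8 was 0.40. Adamts15 had 2.56, 2.38, 1.75, 1.42 and 1.93 CPM with oxaliplatin and 0.697, 1.30, 1.22 and 1.72 CPM with vehicle, with overlap in 1 library of each arm (log2 0.69 ± 0.29, edgeR adjusted p = 0.453). Adamts7 was 0.798 ± 0.244 CPM with oxaliplatin (SD, n = 5) and 0.401 ± 0.153 CPM with vehicle (SD, n = 4), with overlap. Adamts5 was 11.3 ± 1.33 CPM with oxaliplatin and 15.7 ± 5.91 CPM with vehicle, where vehicle mouse 4 stood highest at 24.3 CPM. Adamts2, the procollagen N-proteinase, had 1.44, 4.92, 2.85, 2.24 and 2.5 CPM with oxaliplatin and 3.53, 4.11, 5.73 and 8.03 CPM with vehicle (log2 -0.95 ± 0.33, edgeR adjusted p = 0.345), where again vehicle mice 3 and 4 were highest. Endothelial markers summed to 293 to 332 CPM with oxaliplatin and 201 to 259 CPM with vehicle in muscle.

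Values of neighbouring members of the family are given side by side. Adamts1 and Adamts5 lie 53.1 kb apart on chromosome 16, on the same strand. In hypothalamus their log2 fold changes were 1.64 ± 0.30 and -0.16 ± 0.21, and in fat -0.18 ± 0.16 and -2.05 ± 0.55. Adamts15 and Adamts8 lie 20.1 kb apart on chromosome 9, with 1.67 ± 0.38 and -0.73 ± 0.46 in fat and 0.69 ± 0.29 and 1.30 ± 0.44 in muscle.

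All 5 ADAMTS-like genes, which bind microfibrils and cut nothing, had log2 fold changes below 0 in each of the 3 tissues, and 0 of 5 passed edgeR's adjusted threshold in any. In fat 2 had an unadjusted edgeR p below 0.05, beside 26.1% of all genes (12.7% lower). Of the 13284 genes tested in all 3 tissues 16.9% lay below 0 in each, and of the 33 members so tested 12 did. The range of the 5 ADAMTS-like genes was -0.48 to -0.08 in muscle, -1.5 to -0.37 in fat and -0.56 to -0.03 in hypothalamus. The most abundant was Adamtsl4. In fat it had 17.1, 23.7, 18.3 and 76.1 CPM in oxaliplatin mice 2 to 5, against 60.5, 71.7 and 73.4 CPM in vehicle mice. Mouse 5 exceeded all vehicle libraries, while mice 2 to 4 were below a level of 24 CPM. Without mouse 5 the log2 fold change was -1.80 (edgeR adjusted p = 7.83e-04), beside 25.5% of all genes called (13.5% lower). Adamtsl5 followed the same order, with 9.30, 11.1, 9.76 and 29.2 CPM with oxaliplatin and 22.4, 30.9 and 36.3 CPM with vehicle.

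Of the 4 TIMPs, Timp4 had the smallest edgeR p in hypothalamus. It had 75.8, 83.6, 69.9 and 46.0 CPM in oxaliplatin mice 2 to 5, against 35.2, 43.3 and 40.7 CPM in vehicle mice 1, 2 and 4. Mouse 5 was just above the highest vehicle library, and the arms did not overlap (log2 0.79 ± 0.19, edgeR adjusted p = 0.260). Without mouse 5 the log2 fold change was 0.93 (edgeR adjusted p = 0.00397), beside 3.49% of all genes called (2.12% higher). Timp4 lies inside Syn2, a synapsin gene on the opposite strand whose exons overlap its own, and reads of the genes cannot be told apart. Syn2 had a log2 fold change of -0.07 in hypothalamus, 1.66 in muscle and 1.96 in fat. Timp4 was 66.9 ± 13.6 CPM with oxaliplatin (SD, n = 5) and 55.3 ± 4.06 CPM with vehicle (SD, n = 4) in muscle, and 133 ± 48.2 CPM with oxaliplatin (SD, n = 4) and 143 ± 47.3 CPM with vehicle (SD, n = 3) in fat, differences within the spread.

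Timp2, which also takes part in the activation of the Mmp2 precursor, had 15.3, 21.7, 12.4, 17.7 and 19.2 CPM with oxaliplatin in muscle, against 15.7, 19.4, 36.3 and 51.8 CPM with vehicle. Vehicle mice 3 and 4 were above every other library, as for Mmp2 (log2 -0.84 ± 0.32, edgeR adjusted p = 0.424), and without them the log2 fold change was -0.03. In fat Timp2 had 196, 345, 287 and 528 CPM with oxaliplatin and 377, 503 and 544 CPM with vehicle, with mouse 5 again among the vehicle values. In hypothalamus it was 653 ± 25.7 CPM with oxaliplatin (SD, n = 4) and 626 ± 28.4 CPM with vehicle (SD, n = 3). Timp3 had log2 fold changes of -0.08 ± 0.20 in muscle, -0.13 ± 0.14 in fat and 0.19 ± 0.13 in hypothalamus. Timp1, the inducible inhibitor, was low throughout, at 1.31 ± 0.631 CPM with oxaliplatin and 1.37 ± 0.619 CPM with vehicle in fat, and untested in muscle.

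The crosslinking enzymes had all 5 log2 fold changes below 0 in muscle, from -0.72 for Loxl4 to -0.40 for Loxl2. Of these, 0 had an unadjusted edgeR p below 0.05, beside 9.59% of all genes. In fat Loxl1, needed for elastic fibres, had 17.5, 38.5, 49.5 and 249 CPM in oxaliplatin mice 2 to 5, against 149, 260.2 and 219 CPM in vehicle mice. Mouse 5 lay in the vehicle range and the others far below it (log2 -1.24 ± 0.83, edgeR adjusted p = 0.359). Without mouse 5 the log2 fold change was -2.57 (edgeR adjusted p = 0.00817), beside 25.5% of all genes called (13.5% lower). Loxl2, which crosslinks basement membrane collagen, also had mouse 5 far above the other oxaliplatin libraries. It had 13.9, 24.7, 19.9 and 106 CPM with oxaliplatin and 63.6, 92.8 and 75.3 CPM with vehicle. Lox itself did not, with 118, 170.3, 105 and 65.9 CPM in oxaliplatin fat and 128, 91.4 and 105 CPM in vehicle fat.

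In hypothalamus Lox and Loxl3 had separate arms in opposite directions. Lox had 1.93, 5.31, 1.5 and 1.69 CPM with oxaliplatin, against 1.06, 1.01 and 1.33 CPM with vehicle, and mouse 3 alone was above 2 CPM (log2 1.2 ± 0.46, edgeR adjusted p = 0.451). Loxl3 had 2.58, 3.91, 3.23 and 3.09 CPM with oxaliplatin, against 4.69, 4.50 and 4.61 CPM with vehicle (log2 -0.52 ± 0.18, edgeR adjusted p = 0.402). Its exons overlap those of Htra2 on the opposite strand, which had a log2 fold change of -0.24 (unadjusted edgeR p above 0.05).

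The tests of the difference in effect between tissues also called 0 members with edgeR. For fat minus hypothalamus 10 of 49 tested members had an unadjusted p below 0.05, beside 17.9% of all genes and 0.225% called after adjustment. Adamts1 gave -1.82 ± 0.35 on the log2 scale (adjusted p = 0.0567, edgeR), Adamts4 2.55 ± 0.51 (adjusted p = 0.0598, edgeR), Adamts15 1.72 ± 0.41 (adjusted p = 0.0769, edgeR) and Adamts16, on few reads in fat, -4.23 ± 1.07 (adjusted p = 0.0912, edgeR). Without fat oxaliplatin mouse 5 edgeR called 16 members in this difference, beside 13.1% of all genes, these 4 included, with an adjusted p of 0.00627 for Adamts1. Without hypothalamus oxaliplatin mouse 5 it called Adamts1 and Adamts4, beside 0.435% of all genes, and without hypothalamus oxaliplatin mouse 2 Adamts4 as the 1 member, beside 0.157%. For fat minus muscle there were 8 of 49, beside 14.9% of all genes and 0.157% called, with Adamts8 at -2.03 ± 0.70 and Adamts5 at -1.58 ± 0.56. Without fat oxaliplatin mouse 5 edgeR called 7, beside 7.12% of all genes, among them Adamts5 at -2.30. Mmp8 and Adamts13 had smaller p-values there but rest on low counts, 94 reads of Mmp8 in oxaliplatin fat against 1 in vehicle fat and 37 reads of Adamts13 against 3, so their fitted sizes depend on the prior count and are not given. For muscle minus hypothalamus there were 7 of 47, beside 8.08% of all genes and 0.0584% called, with Adamts1 at -1.38 ± 0.35 (adjusted p = 0.161, edgeR) and Mmp9 at -3.23 ± 0.96 (adjusted p = 0.269, edgeR). Adamts1 was called without hypothalamus oxaliplatin mouse 5 (edgeR adjusted p = 0.0199, beside 0.466% of all genes called) and Mmp9 without muscle vehicle mouse 2 (edgeR adjusted p = 0.0493, beside 0.112%). Muscle libraries were made with another kit, so a difference that involves muscle and one of kit cannot be told apart.

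The sequence just before the start site is shown for the 3 genes of the hypothalamus with the smallest p, since they were higher in the same libraries. The RefSeq promoter table (GRCm38.p6) matched 32 of the 51 members with 34 promoters, and 250 bases before the start were searched on both strands for 5 motifs, none of which contains another. They were the GC box motif spelled GGGCGG, the core promoter motif spelled TATAAA, the AP-1 site with the letters TGANTCA, the E-box written as CACGTG and the glucocorticoid receptor motif whose letters are AGAACA. Capitals mark the matches.
Adamts1 (chr16:85803114-85803363, - strand): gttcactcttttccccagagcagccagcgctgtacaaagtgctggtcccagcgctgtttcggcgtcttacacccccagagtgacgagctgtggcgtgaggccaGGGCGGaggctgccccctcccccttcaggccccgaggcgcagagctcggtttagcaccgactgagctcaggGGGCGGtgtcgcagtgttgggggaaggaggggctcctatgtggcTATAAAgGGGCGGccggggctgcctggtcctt
Adamts9 (chr6:92943535-92943784, - strand): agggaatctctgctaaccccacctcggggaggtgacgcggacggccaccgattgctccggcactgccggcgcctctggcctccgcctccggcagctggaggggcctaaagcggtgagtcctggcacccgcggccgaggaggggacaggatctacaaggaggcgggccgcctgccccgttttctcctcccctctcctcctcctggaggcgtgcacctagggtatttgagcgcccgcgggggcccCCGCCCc
Timp4 (chr6:115252206-115252455, - strand): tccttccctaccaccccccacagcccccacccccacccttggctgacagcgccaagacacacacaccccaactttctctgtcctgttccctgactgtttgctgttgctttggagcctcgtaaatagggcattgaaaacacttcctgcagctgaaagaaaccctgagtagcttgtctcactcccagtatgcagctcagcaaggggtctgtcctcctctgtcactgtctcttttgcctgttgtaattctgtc
Adamts1 held GGGCGG at -147, -76 and -25 and TATAAA at -32 from the start, Adamts9 held GGGCGG on the other strand at -7, and Timp4 held none of the motifs. GGGCGG was in 21 of the 34 member promoters and in 32.7% of all 32851 promoters of the table, TATAAA in 5 of 34 and 12.4%, TGANTCA in 3 of 34 and 6.75%, CACGTG in 1 of 34 and 6.02%, and AGAACA in 3 of 34 and 16.1%.

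Other genes of matrix turnover came from 5 lists, and 1 of their genes passed edgeR's adjusted threshold. That was Vwf, von Willebrand factor, which endothelial cells make and which ADAMTS13 cuts. Vwf was 236 ± 77.0 CPM with oxaliplatin (SD, n = 4) in hypothalamus, against 30.0 ± 3.37 CPM with vehicle (SD, n = 3). Its log2 fold change was 2.97 ± 0.30 (edgeR adjusted p = 0.0193). In muscle Vwf was 23.7 ± 4.64 CPM with oxaliplatin (SD, n = 5) and 12.5 ± 4.06 CPM with vehicle (SD, n = 4). The ranges did not overlap there either (log2 0.92 ± 0.22, edgeR adjusted p = 0.143). Vwf is also 1 of the 10 endothelial markers, so its call and their sum are not separate results. Of the list of proteoglycan and glycoprotein substrates 1 of 30 tested genes was called higher in hypothalamus and 0 lower, and 0 of 25 in muscle and 0 of 27 in fat were called.

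Protease activators and other matrix-cutting proteases had 0 of 26, 0 of 30 and 0 of 25 genes called in muscle, fat and hypothalamus. Plaur, the urokinase receptor, which localises plasminogen activation, was 11.2 ± 2.32 CPM with oxaliplatin and 4.77 ± 1.55 CPM with vehicle in fat, without overlap of the ranges (edgeR adjusted p = 0.114), and 3.24 ± 2.55 CPM with oxaliplatin and 0.271 ± 0.139 CPM with vehicle in hypothalamus (edgeR adjusted p = 0.237). In muscle Ctsk, the collagen-cutting cathepsin K, was 2.52 ± 0.941 CPM with oxaliplatin and 8.00 ± 5.23 CPM with vehicle (edgeR adjusted p = 0.212). Other inhibitors had 0 of 9, 0 of 12 and 0 of 13 called in the same order of tissues. Reck, a membrane-anchored MMP inhibitor, was 14.4 ± 2.29 CPM with oxaliplatin and 9.14 ± 0.423 CPM with vehicle in hypothalamus (edgeR adjusted p = 0.214).

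Collagen maturation and other crosslinking enzymes had 0 of 18, 0 of 19 and 0 of 19 called. Tgm2, tissue transglutaminase, was 54.4 ± 7.90 CPM with oxaliplatin and 40.7 ± 5.01 CPM with vehicle in muscle (edgeR adjusted p = 0.281). Genes of TGF beta and other matrix-inducing signals had 0 of 17, 0 of 21 and 0 of 19 called. Tgfbr2, the type II TGF beta receptor, was 453 ± 128 CPM with oxaliplatin and 218 ± 14.6 CPM with vehicle in fat (edgeR adjusted p = 0.114), while Ltbp4, which stores latent TGF beta in the matrix, was 142 ± 58.6 CPM with oxaliplatin and 348 ± 59.0 CPM with vehicle (edgeR adjusted p = 0.114). Ccn2, a TGF beta target, was 52.1 ± 29.4 CPM with oxaliplatin and 13.5 ± 3.82 CPM with vehicle in hypothalamus (edgeR adjusted p = 0.351), without overlap of the ranges.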

How the data were processed

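RNA sequencing of 23 libraries was used. Per the labels' protocols, RNA of integrity above 8 went into a Clontech SMARTer kit for muscle and a RiboErase kit for the other tissues. The submitters' processing notes name STAR 2.5.1a, Partek and DESeq2 with no role. The authors deposited expected counts of each gene, with 45.7%, 41.4% and 49.1% of values in muscle, fat and hypothalamus not whole. Whole counts had been planned for; the expected counts were rounded. Every row summed to at least 10. No source used here names the build; gene starts equalled those of GENCODE M21 (GRCm38) for 99.4% to 99.5% of shared identifiers. Strandedness of the counting is not stated, and exons of 14 of the 51 members overlap another gene's.

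Each tissue was fitted alone with edgeR 4.0.16 (R 4.3.3): filterByExpr (minimum count 10, minimum total 15), TMM, robust quasi-likelihood F test over all genes kept, Benjamini-Hochberg adjustment and a threshold of 0.05. SE is the log2 fold change divided by the square root of F. Differences between tissues came from 1 fit over both. CPM divides a count by the TMM-scaled library size. Counting error is smallest for abundant genes. DESeq2 1.42.0, limma 3.58.1 (voom), other scalings and filters, the mouse number as a block and each library left out were alternatives. The tests were tested on simulated data.

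The members, gene lists and tests were chosen with earlier results of these data known. Named genes were the 8 members of smallest p per tissue, the 4 per difference, the 2 most abundant per family and 3 genes per list and tissue, of which a part is printed. Samples are numbered within an arm; the labels do not say whether equal numbers across tissues are 1 animal, and p-values measure the spread between these samples. No pair of libraries was a copy (34 pairs, lowest chi-square per degree of freedom 6.75).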

Additional observations from a re-analysis of the deposited data

Results flagged for a closer look

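Over 66 groups of 4 or 5 libraries examined for named members, 9 held a library whose gap to the rest passed Dixon's 95% critical value, which chance alone passes in about 5% of groups. In fat, 4 were oxaliplatin mouse 5. It had 0.412 CPM of Adamts16, against 0 in oxaliplatin mice 2 to 4. It had 76.1 CPM of Adamtsl4, against 17.1 to 23.7 CPM in them, 29.2 CPM of Adamtsl5, against 9.30 to 11.1 CPM, and 249 CPM of Loxl1, against 17.5 to 49.5 CPM. In muscle, oxaliplatin mouse 2 had 36.0 CPM of Mmp2, against 17.1 to 20.5 CPM in the other oxaliplatin libraries. Oxaliplatin mouse 1 had 47.7 CPM of Adamts1 in muscle, against 25.2 to 30.0 CPM, and 11.6 CPM of Mmp11, against 5.02 to 6.55 CPM. In hypothalamus, oxaliplatin mouse 3 had 5.31 CPM of Lox, against 1.5 to 1.93 CPM, and 331 CPM of Timp3, against 227 to 239.9 CPM. No named member had every library of an arm on opposite sides in a pair of tissues under this search.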

How the results depend on the processing

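None of the 36 named member results changed sign over 641 alternative values: 598 stayed on the same side of the threshold and 43 passed it. These results were chosen for small p in the same data, and the alternatives reuse most of the libraries. Kept signs were therefore likely from the start. A gene filtered out in a setting gave no value there, so Adamts13 had 11 alternatives where Mmp8 had 23. Over all genes, muscle had 24 calls in the report's fit, 42 with no filter on low counts, 13 with limma-voom, 254 with DESeq2, 70 in 1 fit over all tissues and 0 with mouse 5 set to vehicle. Fat had 0 calls, 2428 with DESeq2 and 2929 in 1 fit over all tissues. Hypothalamus had 28 calls, 11 with limma-voom, 262 with DESeq2 and 53 in 1 fit. Members called went to 1 in muscle, 8 in fat and 3 in hypothalamus with DESeq2, and to 10 in fat and 1 in hypothalamus in 1 fit. For fat minus muscle there were 34 calls, 87 with limma-voom and 13 with mouse 5 set to vehicle. For fat minus hypothalamus there were 52 calls among 23091 tested genes, and 116 with limma-voom on the same genes, with 1 of the 49 tested members among the 116. At a mean of at least 1 CPM, a filter that tests other genes, there were 91 calls, 1 of them a member. For muscle minus hypothalamus there were 12 calls, and 0 with mouse 5 set to vehicle. The cause of these shifts was not tested.

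With each library left out in turn, calls over all genes ranged from 2 to 17 in muscle, 0 to 4969 in fat, 0 to 655 in hypothalamus, 9 to 1532 for fat minus muscle, 3 to 2988 for fat minus hypothalamus and 0 to 95 for muscle minus hypothalamus. Members called ranged from 0 to 0 in muscle, 0 to 21 in fat, 0 to 2 in hypothalamus, 0 to 7, 0 to 16 and 0 to 1 for the same differences. The upper ends in fat, and in fat minus either tissue, came without fat oxaliplatin mouse 5, and in hypothalamus without oxaliplatin mouse 5.

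The mouse number was not taken as a pairing, since the labels do not link equal numbers across the arms. Deviations of same-numbered libraries had correlations of -0.18 to 0.17 in muscle (4 pairs), -0.28 to -0.18 in fat (2 pairs) and -0.01 to 0.03 in hypothalamus (2 pairs). So few pairs cannot decide whether a pairing exists. With the mouse number as a replicate block, calls were 3 in muscle, and 1 member, Adamts1, was called in hypothalamus (log2 1.77, edgeR adjusted p = 0.0349). With arm and mouse number as a random effect across tissues, a replicate block as well, calls were 62 of 21717 tested genes for fat minus muscle. For fat minus hypothalamus they were 195 of 23091 tested genes, and 2 of the 49 tested members were among them. Depth limits Mmp8, Adamts13 and Adamts16, whose levels rest on few reads.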

Other observations

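Mmp8, untested in fat for low counts, had 0.433, 0.439, 0.529 and 3.94 CPM in oxaliplatin mice 2 to 5 of fat, against 0, 0 and 0.0550 CPM in vehicle mice 1, 2 and 4. Neutrophil markers summed to 5.95, 8.24, 18.1 and 98.1 CPM in those oxaliplatin libraries and to 3.00, 40.3 and 4.68 CPM in the vehicle libraries, where the sum of vehicle mouse 2 was mostly Ltf, lactoferrin, at 36.0 CPM. Adamts4, untested in muscle, had 0.853, 0.754, 0.100, 0.126 and 0.564 CPM in oxaliplatin mice 1 to 5, against 0.0410, 0, 0.0699 and 0.311 CPM in vehicle mice 1 to 4, with 70 reads in all with oxaliplatin and 14 with vehicle. Mmp13, a collagenase, had 0, 0.0397, 0, 0.126 and 1.93 CPM with oxaliplatin and 0.0820, 2.93, 1.85 and 1.19 CPM with vehicle in muscle, where the high oxaliplatin library is the one whose labels conflict.

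Summed per length over each family, fat ADAMTS levels were 57.6 to 103 reads per kb of exon per M reads with oxaliplatin and 101 to 127 with vehicle, and fat Mmp levels were 118 to 183 with oxaliplatin and 111 to 162 with vehicle. The hypothalamic Mmp sum was 31.2 to 40.5 with oxaliplatin and 37.7 to 43.8 with vehicle, and the ADAMTS sum 26.2 to 31.1 with oxaliplatin and 24.6 to 26.8 with vehicle.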
